A study of Homo sapiens with 18 samples.

Results

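The genes examined encode the enzymes that build the disialoganglioside GD2 and protein surface antigens that are used or have been proposed as immunotherapy targets in neuroblastoma. They were chosen by symbol as 9 genes out of the 63677 identifiers in the gene tables. The GD2 enzymes were B4GALNT1, ST8SIA1, ST3GAL5 and B3GALT4, and the surface proteins CD276, GPC2, L1CAM, NCAM1 and CD47. RNA was read in bulk from human neuroblastoma cell lines grown as xenograft tumours, in 18 libraries. The groups were SKNAS Hmx1, SKNAS control, LAN-1 Hmx1, LAN-1 control, KELLY Hmx1 and KELLY control, with 3 libraries each. The treatment field reads none in all groups, and a MYCN-amplified genotype is entered for 2 of the KELLY control libraries only. The labels name the Hmx1 arm after a homeobox gene without saying whether it was raised or lowered, by which vector, in which clones or in which host strain. Nor do they tie the libraries of a group to different animals, so p-values here rest on the scatter of libraries that may be technical repeats.

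GD2 is a sialylated glycosphingolipid that neuroblastoma cells carry at high density on their surface, and it is the antigen of the therapeutic antibody dinutuximab. It is assembled stepwise in the Golgi apparatus. ST3GAL5 adds a sialic acid to lactosylceramide to give GM3, ST8SIA1 adds a further sialic acid to give GD3, and B4GALNT1 adds N-acetylgalactosamine to give GD2. B3GALT4 then adds galactose and carries GD2 on to GD1b. CD276 (B7-H3) is an immune checkpoint ligand, GPC2 a heparan sulfate proteoglycan of the developing nervous system, L1CAM and NCAM1 neural cell adhesion molecules, and CD47 the ligand through which a cell restrains phagocytosis by macrophages. A transcript level measures neither the ganglioside nor the protein at the surface.

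ST8SIA1 and ST3GAL5 encode consecutive sialyltransferases and were both highest in LAN-1. The 250 bases before a start of each are therefore shown, 5′ to 3′ on the gene's own strand, from RefSeq GRCh38.p14. The ST8SIA1 window is chr12:22334708-22334957 and the ST3GAL5 window, the one at the edge of the RefSeq gene among several starts, is chr2:85889035-85889284, both on the minus strand. Capitals mark the GC box (GGGCGG), the CCAAT box and the cyclic AMP response element (TGACGTCA), each read on either strand. On the opposite strand the GC box reads CCGCCC and the CCAAT box reads ATTGG.
ST8SIA1: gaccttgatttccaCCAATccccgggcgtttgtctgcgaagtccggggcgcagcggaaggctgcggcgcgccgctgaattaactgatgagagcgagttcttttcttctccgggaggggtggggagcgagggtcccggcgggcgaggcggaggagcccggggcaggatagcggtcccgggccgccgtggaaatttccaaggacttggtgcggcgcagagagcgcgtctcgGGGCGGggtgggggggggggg
ST3GAL5: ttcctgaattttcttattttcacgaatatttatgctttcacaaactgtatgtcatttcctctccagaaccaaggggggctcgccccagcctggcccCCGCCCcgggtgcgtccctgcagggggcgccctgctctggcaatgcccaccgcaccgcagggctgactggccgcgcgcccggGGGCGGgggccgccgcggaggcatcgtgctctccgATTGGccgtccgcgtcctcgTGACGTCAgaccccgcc
The ST8SIA1 window held 28 CpG and the ST3GAL5 window 24 CpG, where the median of all 35116 such windows was 11. The ST8SIA1 window had 1 GC box 21 bases before the start and 1 CCAAT box 236 bases before it. The ST3GAL5 window had 2 GC boxes, 1 CCAAT box 37 bases before the start and 1 cyclic AMP response element 17 bases before it. Of all windows, 42.6% held the GC box, 32.0% the CCAAT box and 1.65% the cyclic AMP response element. The search covered 6 motifs on both strands, and no 2 of the marked matches overlap. The others were CACGTG, held by 6.34% of all windows, CAAGTG, held by 9.5%, and GATAA, held by 20.4%. None of these occurred in the 12 windows of the 6 genes with an entry. These are matches of letters and not measured binding sites. B4GALNT1, B3GALT4 and NCAM1 had no entry.

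Values are TPM, the share of transcripts corrected for gene length and scaled to a fixed total, so levels of different genes in a library can be set side by side. Across libraries TPM shifts with the make-up of the RNA, and median-ratio size factors ran between 0.592 and 1.31. Between 14420 and 16441 genes reached 1 TPM per library. Changes are differences of log2(TPM + 1), which understate changes of low genes, with a standard error (SE) and an adjusted p from limma over 18650 tested genes. Mitochondrial transcripts took 4.47% to 33.8% of the TPM and varied most in the KELLY control libraries, at 12.9% to 33.8%. The 10 sympathoadrenal markers, among them HAND2 and DBH, summed to 879 to 3401 TPM per library, and none was listed at 0 throughout a group. A sum does not show the level of each marker. By limma, 8 of the 10 were lower and 1 higher in SKNAS control than in LAN-1 control. Against KELLY control, 6 were lower and 3 higher. MYCN was at most 0.101 TPM in SKNAS, 741 to 898 TPM in LAN-1 and 948 to 2000 TPM in KELLY. HMX1 had 1.24, 0.193 and 0.411 TPM in SKNAS Hmx1, and all SKNAS control values were listed at 0. It had 11.45 to 16.5 TPM in LAN-1 Hmx1 and 11.1 to 11.9 TPM in LAN-1 control, and 4.68 to 6.40 TPM in KELLY Hmx1 and 3.92 to 7.72 TPM in KELLY control. HMX1 thus separated the arms in SKNAS, while its ranges overlapped in LAN-1 and KELLY. Replicate 1 of LAN-1 Hmx1 was the highest of its group for every tested gene of the set. Replicate 1 of KELLY control was the lowest of its group for every tested gene of the set except CD276, for which it was the highest.

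LAN-1 tumours carried the highest RNA levels of the enzymes for the steps from lactosylceramide to GD2. B4GALNT1, ST8SIA1 and ST3GAL5 were each higher in every LAN-1 library than in every library of SKNAS and KELLY. Of the surface proteins, CD47 was the most abundant in most libraries. B3GALT4, the step beyond GD2, was low throughout and highest in SKNAS.

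B4GALNT1 (ENSG00000135454, GRCh37 chromosome 12, 58017193 to 58027138, minus strand), the GD2 synthase, had 5.58, 4.04 and 7.33 TPM in SKNAS Hmx1 and 4.86, 6.11 and 9.20 TPM in SKNAS control. It had 39.6, 24.5 and 23.7 TPM in LAN-1 Hmx1 and 34.9, 30.5 and 27.7 TPM in LAN-1 control. It had 8.89, 15.0 and 7.77 TPM in KELLY Hmx1 and 6.54, 18.4 and 9.88 TPM in KELLY control. All 6 LAN-1 libraries lay above all others, and the KELLY and SKNAS ranges overlapped. In control tumours the mean was 6.72 ± 2.24 TPM in SKNAS and 31.0 ± 3.63 TPM in LAN-1 (SD, n = 3 each), a log2 difference of -2.08 by limma (SE 0.33, adjusted p = 3.82e-05). LAN-1 was also above KELLY (11.6 ± 6.10 TPM), by 1.45 (SE 0.33, adjusted p = 0.00134). SKNAS against KELLY gave -0.63 (SE 0.33, adjusted p = 0.0968). That last difference passed without KELLY control replicate 1, at -0.95 (adjusted p = 0.0206), and after median-ratio scaling, at -1.21 (adjusted p = 0.000393). SLC26A10P lies on the opposite strand and overlaps the 3′ end of B4GALNT1 by 2742 bases. It was higher in SKNAS, with means of 30.1 and 28.1 TPM in SKNAS Hmx1 and control, 7.06 and 10.1 TPM in LAN-1, and 5.16 and 6.40 TPM in KELLY. No source used here says how the counting used strand, so reads over the shared bases cannot be told apart.

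ST8SIA1 (ENSG00000111728, GRCh37 chromosome 12, 22216707 to 22589975, minus strand), the GD3 synthase, had 2.35, 1.91 and 2.36 TPM in SKNAS Hmx1, against 3.75, 3.53 and 4.24 TPM in SKNAS control. It had 14.3, 13.6 and 14.1 TPM in LAN-1 Hmx1 and 15.9, 14.1 and 12.4 TPM in LAN-1 control. It had 2.95, 2.15 and 2.18 TPM in KELLY Hmx1 and 1.08, 2.20 and 1.69 TPM in KELLY control. The 3 lines did not overlap in their control arms, with LAN-1 highest, SKNAS next and KELLY lowest, while SKNAS Hmx1 lay among the KELLY libraries. Control SKNAS was below LAN-1 by limma, with a log2 difference of -1.64 (SE 0.18, adjusted p = 4.82e-07), and above KELLY by 0.88 (SE 0.18, adjusted p = 0.000325). LAN-1 was above KELLY by 2.52 (SE 0.18, adjusted p = 3.51e-09), the largest of the control differences among the 8 tested genes. These calls held in 28 of 28 alternative settings. The 3′ end of ST8SIA1 overlaps 1902 bases of CMAS on the opposite strand, the enzyme that activates sialic acid to CMP-sialic acid, which ran at 44.9 to 113.7 TPM. The part of CMAS reads in the ST8SIA1 values was not tested.

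ST3GAL5 (ENSG00000115525, GRCh37 chromosome 2, 86066267 to 86116137, minus strand), the GM3 synthase, had 5.995, 5.30 and 7.42 TPM in SKNAS Hmx1 and 7.24, 6.88 and 9.06 TPM in SKNAS control. It had 23.0, 19.1 and 20.6 TPM in LAN-1 Hmx1 and 23.8, 18.3 and 20.8 TPM in LAN-1 control. It had 7.05, 5.75 and 4.17 TPM in KELLY Hmx1 and 3.05, 8.14 and 4.89 TPM in KELLY control. LAN-1 again stood apart, and SKNAS and KELLY overlapped. Control SKNAS was lower than LAN-1 by limma, with a log2 difference of -1.33 (SE 0.25, adjusted p = 0.000223), and LAN-1 was higher than KELLY by 1.86 (SE 0.25, adjusted p = 8.61e-06). SKNAS against KELLY gave 0.53 (SE 0.25, adjusted p = 0.0698).

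B3GALT4 (ENSG00000235863, GRCh37 chromosome 6, 33244917 to 33252609, plus strand) reached 1 TPM in 2 libraries, both SKNAS control, and was not tested. It had 0.759, 0.626 and 0.761 TPM in SKNAS Hmx1 and 1.29, 1.02 and 0.478 TPM in SKNAS control. LAN-1 Hmx1 held 0.142 to 0.277 TPM and LAN-1 control 0.0677 to 0.188 TPM. Every SKNAS library was above every LAN-1 and KELLY library. KELLY Hmx1 held 0 to 0.117 TPM and KELLY control 0 to 0.158 TPM. WDR46, at 70.6 to 143.3 TPM, overlaps 5725 bases of B3GALT4 on the opposite strand, and its means were highest in SKNAS too, at 135 TPM in Hmx1 and 133 TPM in control tumours. The part of WDR46 reads in these low values was not tested.

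**Figure D1:**
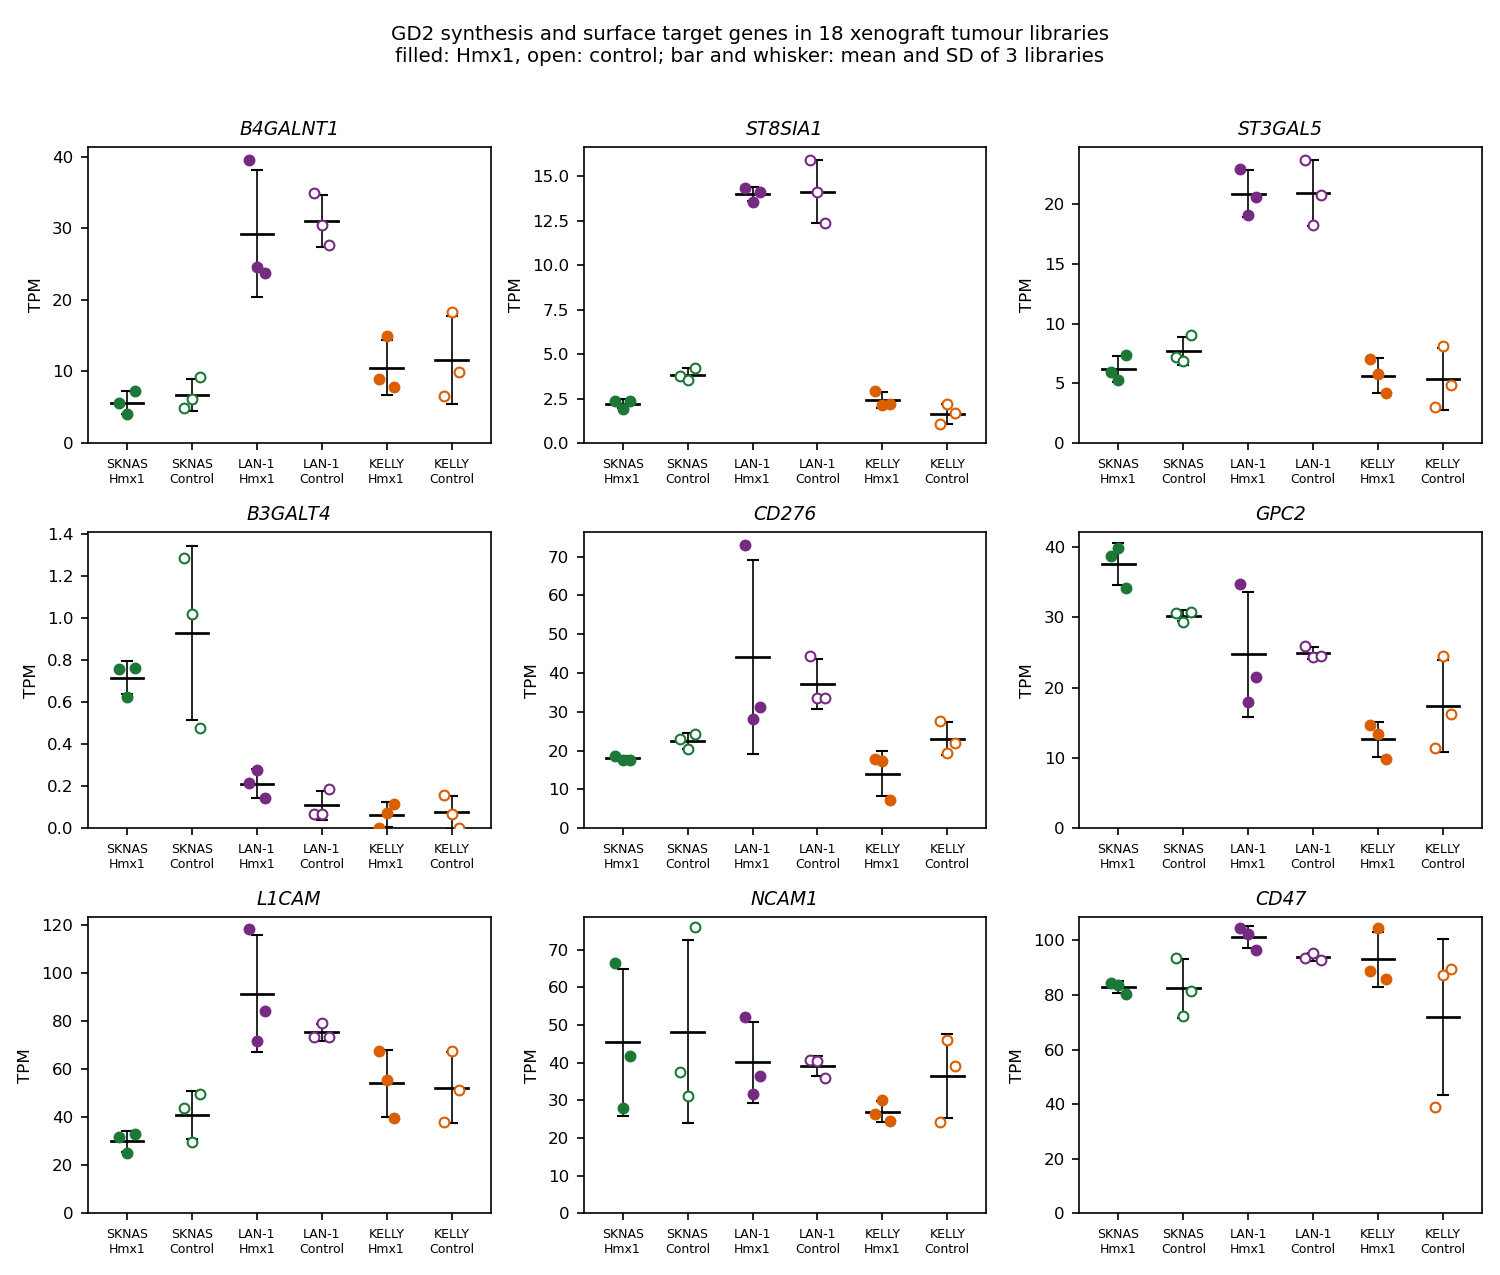
TPM of the 9 genes in each library, with 1 panel per gene, Hmx1 and control arms side by side for each line, and the mean and SD of 3 libraries. B4GALNT1, ST8SIA1 and ST3GAL5 were highest in LAN-1, B3GALT4 did not exceed 1.29 TPM, and LAN-1 Hmx1 replicate 1 (73.0 TPM for CD276) and KELLY control replicate 1 (38.8 TPM for CD47) lay apart from their groups.

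The balance of the enzymes within a library was read as ratios. The ratio of ST8SIA1 to B4GALNT1, GD3 synthase over GD2 synthase, was 0.322 to 0.474 in SKNAS Hmx1 and 0.460 to 0.772 in SKNAS control. It was 0.362 to 0.594 in LAN-1 Hmx1 and 0.447 to 0.463 in LAN-1 control, and 0.144 to 0.331 in KELLY Hmx1 and 0.120 to 0.171 in KELLY control. The KELLY control ratios lay below all those of SKNAS and LAN-1 controls. The ratio of ST3GAL5 to B4GALNT1 was 0.985 to 1.49 in SKNAS control, 0.600 to 0.752 in LAN-1 control and 0.443 to 0.494 in KELLY control, without overlap. In the Hmx1 arms it was 1.01 to 1.31 in SKNAS, 0.580 to 0.871 in LAN-1 and 0.385 to 0.793 in KELLY, where LAN-1 and KELLY overlapped. Both ratios do not depend on how a library is scaled.

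Among the protein targets, CD276 (ENSG00000103855, GRCh37 chromosome 15, 73976307 to 74006859, plus strand) had 18.7, 17.7 and 17.6 TPM in SKNAS Hmx1, against 23.1, 20.3 and 24.3 TPM in SKNAS control. It had 73.0, 28.1 and 31.3 TPM in LAN-1 Hmx1 and 44.4, 33.4 and 33.5 TPM in LAN-1 control. It had 17.7, 17.2 and 7.37 TPM in KELLY Hmx1, against 27.7, 19.4 and 21.9 TPM in KELLY control. The arms did not overlap in SKNAS and KELLY, with Hmx1 lower in both, and they overlapped in LAN-1. Neither the SKNAS nor the KELLY difference passed by limma (adjusted p = 0.727 and 0.671). Between control arms, SKNAS against LAN-1 gave a log2 difference of -0.68 by limma (SE 0.32, adjusted p = 0.0802) and LAN-1 against KELLY 0.67 (SE 0.32, adjusted p = 0.0869). SKNAS against LAN-1 passed after median-ratio scaling, at -0.84 (adjusted p = 0.0317). LAN-1 against KELLY was 0.19 after that scaling (adjusted p = 0.653). SKNAS against KELLY was -0.02 before it and -0.65 after it (adjusted p = 0.0837). Without LAN-1 Hmx1 replicate 1, which enters these comparisons only through the shared spread, the adjusted p was 0.0291 for SKNAS against LAN-1 and 0.0326 for LAN-1 against KELLY.

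GPC2 (ENSG00000213420, GRCh37 chromosome 7, 99767229 to 99774995, minus strand) had 38.7, 39.9 and 34.2 TPM in SKNAS Hmx1, against 30.6, 29.4 and 30.8 TPM in SKNAS control. It had 34.7, 17.9 and 21.6 TPM in LAN-1 Hmx1 and 25.9, 24.3 and 24.6 TPM in LAN-1 control. It had 14.7, 13.4 and 9.83 TPM in KELLY Hmx1 and 11.5, 24.5 and 16.3 TPM in KELLY control. SKNAS held the highest group means. Control SKNAS exceeded KELLY by a log2 difference of 0.83 by limma (SE 0.24, adjusted p = 0.00677). The median of all tested genes stood at 0.54 in that comparison, and after median-ratio scaling GPC2 was 0.20 with adjusted p = 0.262.

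L1CAM (ENSG00000198910, GRCh37 chromosome X, 153126969 to 153174677, minus strand) had 31.9, 25.1 and 33.1 TPM in SKNAS Hmx1 and 43.7, 29.9 and 49.6 TPM in SKNAS control. It had 118.7, 71.8 and 84.3 TPM in LAN-1 Hmx1 and 73.6, 79.4 and 73.3 TPM in LAN-1 control. It had 67.5, 55.5 and 39.8 TPM in KELLY Hmx1 and 38.0, 67.5 and 51.6 TPM in KELLY control. In TPM, LAN-1 lay highest, with all 6 libraries above the others. Control LAN-1 against KELLY gave a log2 difference of 0.56 by limma (SE 0.25, adjusted p = 0.0682), which did not pass. After median-ratio scaling this difference was 0.07 (adjusted p = 0.762). Control SKNAS was lower than LAN-1 by limma, with a log2 difference of -0.89 (SE 0.25, adjusted p = 0.00569), and in 28 of 28 alternatives as well. Against KELLY, control SKNAS gave -0.34 (SE 0.25, adjusted p = 0.239), which passed after median-ratio scaling at -0.98 (adjusted p = 8.72e-05). ARHGAP4 overlaps L1CAM by 1857 bases on the same strand. Its means were 35.4 and 33.6 TPM in SKNAS Hmx1 and control, 7.19 and 9.44 TPM in LAN-1, and 10.3 and 15.7 TPM in KELLY.

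NCAM1 (ENSG00000149294, GRCh37 chromosome 11, 112831997 to 113149158, plus strand) had 66.5, 28.0 and 41.7 TPM in SKNAS Hmx1 and 37.6, 31.2 and 76.0 TPM in SKNAS control. It had 52.1, 31.7 and 36.4 TPM in LAN-1 Hmx1 and 40.6, 40.5 and 36.0 TPM in LAN-1 control. It had 26.3, 30.2 and 24.6 TPM in KELLY Hmx1 and 24.3, 45.9 and 39.1 TPM in KELLY control. Each neighbour in the order of group means overlapped the next, and no comparison passed. The differences between control arms were 0.19 for SKNAS against LAN-1 (95% interval -0.49 to 0.88), 0.33 for SKNAS against KELLY (-0.35 to 1.02) and 0.14 for LAN-1 against KELLY (-0.54 to 0.82). The antisense gene NCAM1-AS1 ran at 0 to 8.93 TPM within the span of NCAM1.

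CD47 (ENSG00000196776, GRCh37 chromosome 3, 107762145 to 107809872, minus strand) had 84.4, 83.7 and 80.3 TPM in SKNAS Hmx1 and 93.5, 72.3 and 81.3 TPM in SKNAS control. It had 104, 102 and 96.6 TPM in LAN-1 Hmx1, against 93.7, 95.3 and 92.7 TPM in LAN-1 control. It had 88.7, 105 and 85.8 TPM in KELLY Hmx1 and 38.8, 87.1 and 89.3 TPM in KELLY control. All libraries but KELLY control replicate 1 lay between 72.3 and 105 TPM. LAN-1 control against KELLY control gave a log2 difference of 0.48 by limma (SE 0.23, adjusted p = 0.0865), and 0.09 without KELLY control replicate 1. SKNAS against KELLY gave 0.28 (SE 0.23, adjusted p = 0.280), with the sign reversed after median-ratio scaling, at -0.37 (adjusted p = 0.0406).

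Read over the set, control SKNAS against LAN-1 gave 0 higher and 4 lower of 8 tested, where 52% of all genes were called, 31.5% higher and 20.5% lower, and 57.3% had an unadjusted p under 0.05. The median log2 difference of the set was -0.79 and that of all genes 0.18. After median-ratio scaling, CD276 and CD47 (-0.36, adjusted p = 0.0494) were lower as well. Control SKNAS against KELLY gave 2 higher (ST8SIA1 and GPC2) and 0 lower, where 65.7% of all genes were called, 49.5% higher and 16.1% lower, and 68.6% had an unadjusted p under 0.05. Its medians were 0.31 over the set and 0.54 over all genes. After median-ratio scaling this became 1 higher (ST8SIA1, at 0.43) and 3 lower (B4GALNT1, L1CAM and CD47). Shares of all genes are given for the fit before scaling only, here and for the lists below. Counts after scaling therefore have no share of all genes beside them. LAN-1 against KELLY gave 3 higher, which were ST8SIA1, ST3GAL5 and B4GALNT1, and 0 lower, where 51.8% of all genes were called, 38.2% higher and 13.6% lower, and 57.3% had an unadjusted p under 0.05. Its medians were 0.61 over the set and 0.34 over all genes. Relative to the all-gene median, ST8SIA1, ST3GAL5 and B4GALNT1 stood 2.19, 1.52 and 1.11 higher in LAN-1 than in KELLY. Human genes listed as markers of cell state and of host cells differed along with the set, and whether host or tumour cells made their RNA was not tested. For SKNAS against LAN-1, the sympathoadrenal markers gave 1 higher and 8 lower of 10 (median -2.30), the mesenchymal markers 6 higher and 1 lower of 7 (2.35) and the fibroblast markers 5 higher of 5 (5.39). For SKNAS against KELLY these counts were 3 and 6, 5 and 1, and 4 and 0, and for LAN-1 against KELLY 5 and 2, 3 and 2, and 2 and 3. Their part in the differences of the set was not tested. A call by itself is common in these comparisons, each line is 1 cell line, and the comparisons share control libraries.

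**Figure D2:**
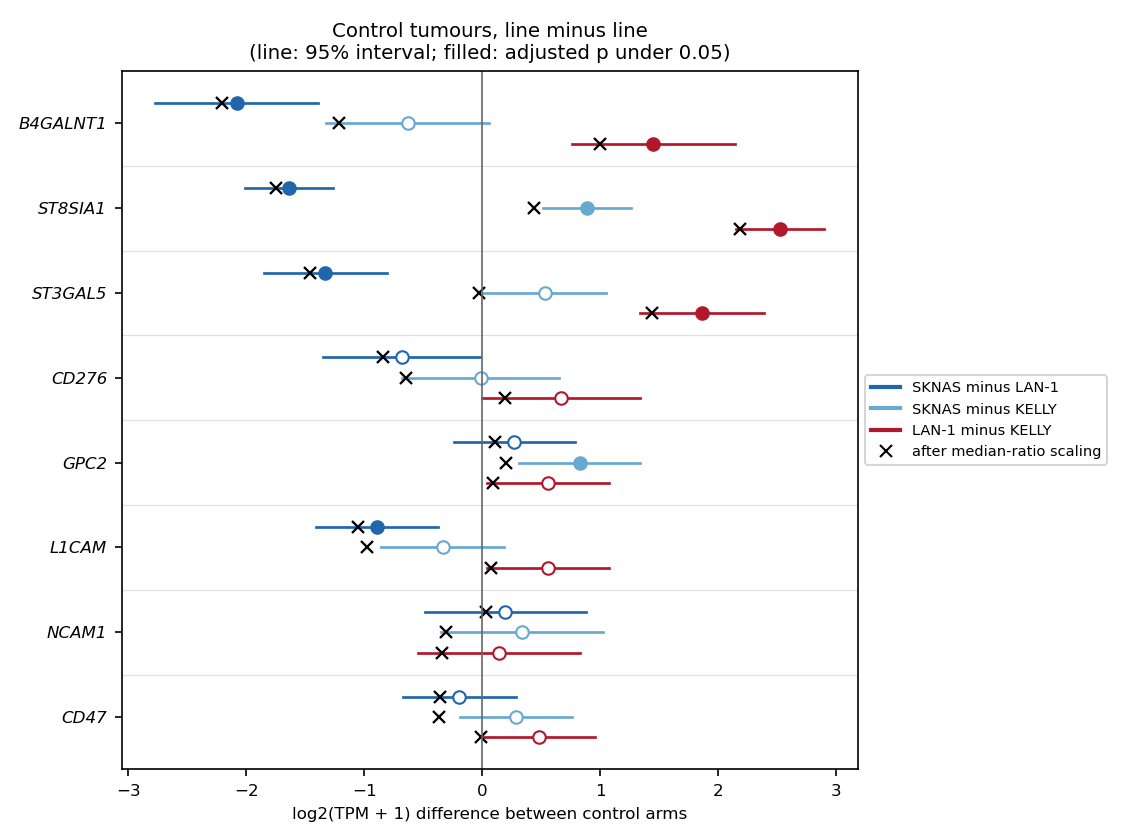
Log2(TPM + 1) differences between control arms for the 8 tested genes, with 95% intervals, filled where the adjusted p is under 0.05, and crosses for the same value after median-ratio scaling. ST8SIA1, ST3GAL5 and B4GALNT1 lay between -2.08 and -1.33 for SKNAS minus LAN-1 and between 1.45 and 2.52 for LAN-1 minus KELLY.

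The Hmx1 arm differed from control in few of these genes. In SKNAS, ST8SIA1 fell, to 2.21 ± 0.255 TPM in Hmx1 tumours, against 3.84 ± 0.361 TPM in control tumours (SD, n = 3 each). The log2 difference was -0.59 by limma (SE 0.18, adjusted p = 0.0445). It was the 1 gene called of 8 tested, 0 higher and 1 lower, where 8.76% of all genes were called, 4.96% higher and 3.8% lower, and 18.6% had an unadjusted p under 0.05. The call lay close to the threshold and was lost in 17 of 28 alternatives, among them the removal of any single SKNAS or LAN-1 library, of KELLY control replicate 3 or of KELLY Hmx1 replicate 2. Over the alternatives the value ran between -0.77 and -0.45 and the adjusted p between 0.00492 and 0.181. In bulk tumours, fewer cells of a type and less RNA per cell cannot be told apart. GPC2 was higher in every SKNAS Hmx1 library than in every control library and CD276 lower. Their log2 differences by limma were 0.30 (SE 0.24, adjusted p = 0.614) and -0.31 (SE 0.32, adjusted p = 0.727), which did not pass. The share of all genes whose arms did not overlap is not given, so separation of the arms is a description only, here and elsewhere. B4GALNT1 gave -0.21 (95% interval -0.90 to 0.48), ST3GAL5 -0.27 (-0.79 to 0.25), L1CAM -0.42 (-0.94 to 0.10), NCAM1 -0.07 (-0.75 to 0.62) and CD47 0.01 (-0.46 to 0.49). The median of the set was -0.24, against 0 for all genes.

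In the same SKNAS tumours, summed markers of several other cell types or states differed between the arms, while single markers went both ways. All these markers are human genes, and how far their reads came from host or from tumour cells was not tested. The 4 markers listed for host leukocytes and macrophages summed to 189 to 286 TPM in Hmx1 and 77.1 to 105 TPM in control tumours. Nearly all of this was PTPRC, at 187, 285 and 219.8 TPM in Hmx1 and 102, 75.7 and 97.9 TPM in control libraries, while CD68, CSF1R and CD14 were each at most 1.65 TPM. The 5 markers listed for host fibroblasts summed to 749 to 841 TPM in Hmx1 and 1087 to 1277 TPM in control tumours. These sums did not overlap between the arms. Of the leukocyte markers tested, PTPRC was higher and CD14 lower (-0.62), and of the 5 fibroblast markers LUM alone passed, as lower (-0.81), with DCN higher after median-ratio scaling. The 7 mesenchymal state markers summed to 456 to 502 TPM in Hmx1 and 678 to 746 TPM in control tumours, and the 10 sympathoadrenal markers to 879 to 917 TPM in Hmx1 and 1027 to 1197 TPM in control tumours. The 4 endothelial markers summed to 5.86 to 8.58 TPM in Hmx1 and 3.07 to 4.35 TPM in control tumours, with PECAM1 listed at 0 in every library, and the 4 muscle markers to 2.80 to 4.70 TPM in Hmx1 and 2.79 to 5.27 TPM in control tumours. The part of these cells or states in the ST8SIA1 difference was not tested.

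In LAN-1, 0 of 8 genes passed with limma, 0 higher and 0 lower, and 0 had an unadjusted p under 0.05, where 0.45% of all genes were called, 0.172% higher and 0.279% lower, and 7.19% had an unadjusted p under 0.05. Differences ran between -0.11 for B4GALNT1 and 0.25 for L1CAM, with a median of 0.00, against -0.05 for all genes. CD47 was higher in every Hmx1 library than in every control library, by 0.10 (95% interval -0.37 to 0.58). Without Hmx1 replicate 1, CD276 gave -0.30 in place of 0.12, L1CAM 0.04 in place of 0.25, and B4GALNT1 -0.34 in place of -0.11. GPC2 gave -0.33 without that library in place of -0.07, and NCAM1 -0.19 in place of 0.01, and none of these passed.

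In KELLY, 0 of 8 genes passed with limma, 0 higher and 0 lower, where 0.0912% of all genes were called, 0.0483% higher and 0.0429% lower, and 6.85% had an unadjusted p under 0.05. The 2 genes with an unadjusted p under 0.05 were CD276 at -0.75 (SE 0.32, adjusted p = 0.671) and ST8SIA1 at 0.38 (SE 0.18, adjusted p = 0.718). CD47 gave 0.46 (SE 0.23, adjusted p = 0.757), which became 0.07 without KELLY control replicate 1. ST8SIA1 became 0.21 without that library. GPC2 gave -0.64 without it in place of -0.39, NCAM1 -0.64 in place of -0.38, and B4GALNT1 -0.38 in place of -0.07. ST3GAL5 gave -0.16 in place of 0.12, L1CAM -0.15 in place of 0.06, and CD276 -0.61 in place of -0.75. None of these passed. With all libraries, the median of the set was -0.01, against 0.02 for all genes.

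**Figure D3:**
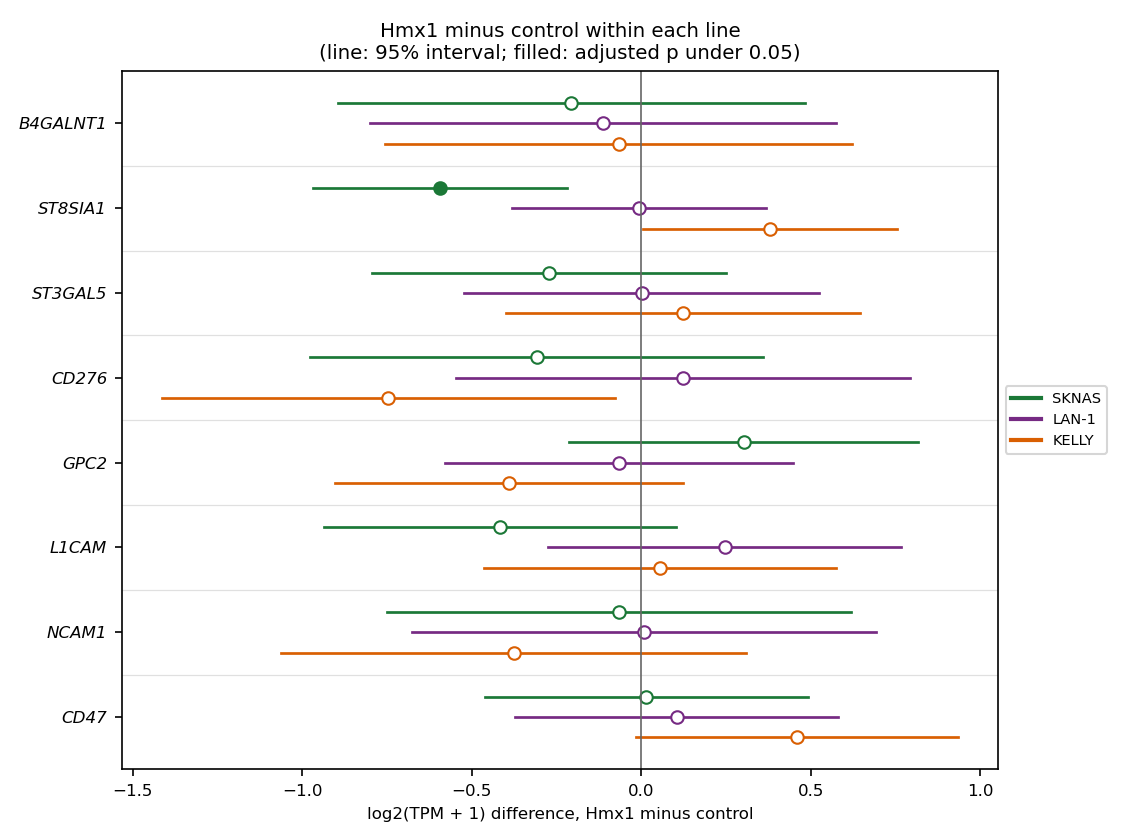
Log2(TPM + 1) differences, Hmx1 minus control, for the 8 tested genes in each line, with 95% intervals, filled where the adjusted p is under 0.05. ST8SIA1 in SKNAS, at -0.59, is the filled point, and ST8SIA1 in KELLY stands at 0.38.

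The Hmx1 effect on ST8SIA1 differed between SKNAS and KELLY. Tested as a difference of these effects with limma, SKNAS minus KELLY was -0.97 (SE 0.25, adjusted p = 0.0304). It was the 1 gene called of 8, 0 higher and 1 lower, where 4.85% of all genes were called, 2.5% higher and 2.35% lower, and 16.8% had an unadjusted p under 0.05. The call was lost in 7 of 28 alternatives, with values between -1.34 and -0.72 and adjusted p between 0.00160 and 0.0932. Among these were the compared lines alone and the removal of SKNAS control replicate 1 or 3, of any SKNAS Hmx1 library or of KELLY Hmx1 replicate 1. ST8SIA1 was lower in all 3 SKNAS Hmx1 libraries than in all SKNAS control libraries, and in KELLY the arms overlapped. For SKNAS minus LAN-1 it gave -0.59 (SE 0.25, adjusted p = 0.254). That comparison called 0 of 8 with limma, 0 higher and 0 lower, with 1 at an unadjusted p under 0.05, where 4.99% of all genes were called, 2.98% higher and 2.01% lower, and 15.5% had an unadjusted p under 0.05. LAN-1 minus KELLY called 0 of 8 with limma, 0 higher and 0 lower, with 0 at an unadjusted p under 0.05, where 0.209% of all genes were called, 0.102% higher and 0.107% lower, and 6.87% had an unadjusted p under 0.05. The mean effect over the lines called 0 of 8 with limma, 0 higher and 0 lower, with 0 at an unadjusted p under 0.05, where 3.54% of all genes were called, 1.97% higher and 1.57% lower, and 12.5% had an unadjusted p under 0.05. Its values ran between -0.31 for CD276 and 0.19 for CD47. GPC2 gave 0.69 (SE 0.34, adjusted p = 0.329) for SKNAS minus KELLY. It passed after quantile normalization, at 0.78 (adjusted p = 0.0259), after median-ratio scaling, at 0.75 (adjusted p = 0.0421), and at 0.94 (adjusted p = 0.0282) without both LAN-1 Hmx1 replicate 1 and KELLY control replicate 1, a removal chosen after seeing the data.

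The steps before GM3 were read from UGCG, which makes glucosylceramide from ceramide, and B4GALT5 and B4GALT6, which make lactosylceramide. In control tumours UGCG had 22.6, 16.7 and 20.4 TPM in SKNAS, 24.3, 23.7 and 27.9 TPM in LAN-1 and 6.46, 12.7 and 11.6 TPM in KELLY. B4GALT6 had 20.6, 24.6 and 18.3 TPM in SKNAS, 9.79, 8.24 and 9.19 TPM in LAN-1 and 1.43, 4.64 and 3.45 TPM in KELLY. The lines did not overlap for B4GALT6, with SKNAS highest and KELLY lowest. LAN-1 exceeded KELLY in 3 of 3 genes, where 38.2% of all genes were called higher. SKNAS exceeded KELLY in 3 of 3, where 49.5% of all genes were called higher, or in 2 of 3 after median-ratio scaling. SKNAS exceeded LAN-1 in B4GALT6 alone, by 1.13 with limma (SE 0.26, adjusted p = 0.00169), where 31.5% of all genes were called higher. After that scaling UGCG and B4GALT5 were lower in SKNAS than in LAN-1. LAN-1 thus combined the highest ST3GAL5, ST8SIA1 and B4GALNT1 with B4GALT6 below that of SKNAS. In SKNAS Hmx1, 0 of these 3 passed with limma, 0 at an unadjusted p under 0.05, against 8.76% and 18.6% of all genes.

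**Figure D4:**
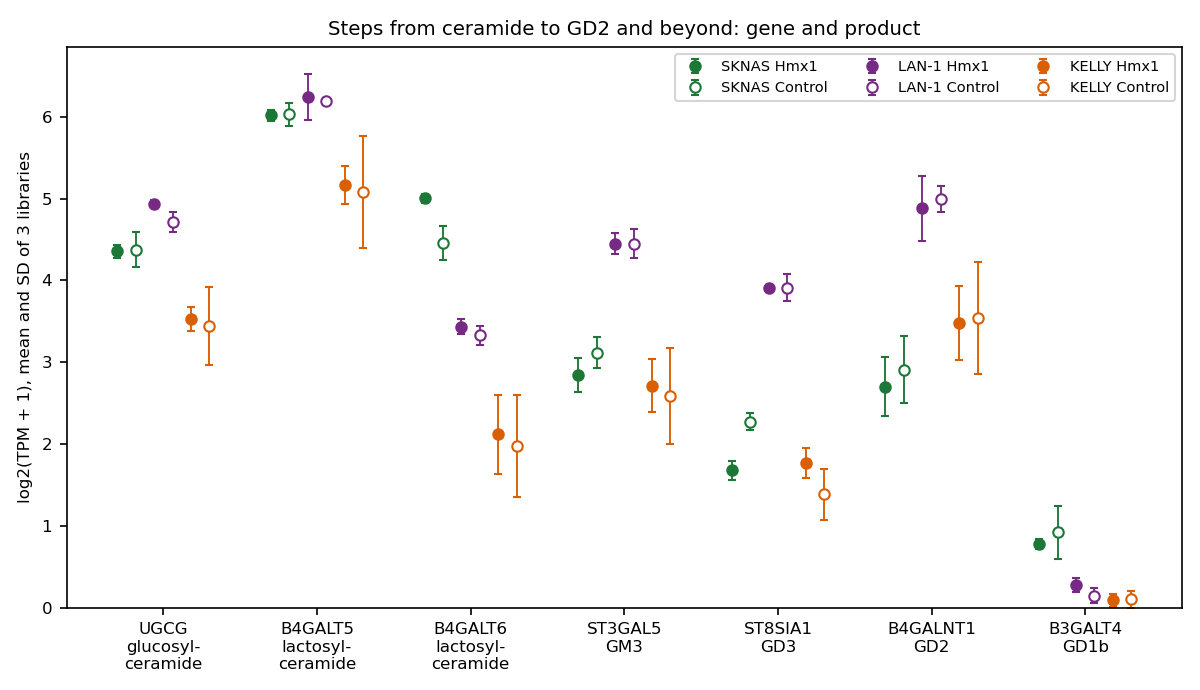
Mean and SD over 3 libraries of log2(TPM + 1) for each step from ceramide to GD2 and on to GD1b, by line and arm. LAN-1 is highest at ST3GAL5, ST8SIA1 and B4GALNT1, SKNAS at B4GALT6, and B3GALT4 is the lowest step in each group.

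Enzymes that compete for the same intermediates or extend other branches were called about as often as all genes between SKNAS and LAN-1. Of 12 tested, SKNAS control against LAN-1 control gave 4 higher and 3 lower, where 52% of all genes were called, or 4 and 4 after median-ratio scaling. Among the lower ones, B3GALNT1, the globoside synthase, stood at a listed 0 in every SKNAS control library, against 14.5, 10.3 and 15.9 TPM in LAN-1 control. ST8SIA3, which adds sialic acid to sialic acid, was at most 0.0904 TPM in SKNAS control, against 9.62 to 10.8 TPM in LAN-1 control. ST6GALNAC5, an alpha2,6-sialyltransferase of complex gangliosides, averaged 14.7 ± 1.90 TPM in SKNAS control, against 72.2 ± 9.33 TPM in LAN-1 control (SD, n = 3 each). ST3GAL1, which sialylates terminal galactose, ran the other way, with 15.3, 13.4 and 19.6 TPM in SKNAS control, against 5.57, 4.75 and 4.89 TPM in LAN-1 control. Against KELLY, SKNAS gave 8 higher and 1 lower, or 4 and 2 after scaling, and LAN-1 gave 8 higher and 1 lower, or 3 and 2. Before scaling, 49.5% of all genes were called higher and 16.1% lower for SKNAS, and 38.2% and 13.6% for LAN-1.

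In SKNAS Hmx1, 2 of these 12 passed, where 8.76% of all genes were called. ST3GAL1 fell, with 6.77, 6.09 and 9.71 TPM in Hmx1, against 15.3, 13.4 and 19.6 TPM in control, a log2 difference of -1.01 by limma (SE 0.27, adjusted p = 0.0247). ST8SIA5, which makes GT3 from GD3, rose by 0.56 (SE 0.16, adjusted p = 0.0363) at a low level, with 0.846, 1.15 and 1.31 TPM in Hmx1, against 0.196, 0.376 and 0.732 TPM in control. The arms did not overlap for either gene. The ST8SIA5 call was lost after quantile normalization (adjusted p = 0.112). The median of the list was -0.04, against 0 for all genes.

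Sialic acid supply gave 2 higher and 3 lower of 6 for SKNAS control against LAN-1 control, where 52% of all genes were called. The largest decreases were in NANP and CMAS, at -0.83 and -0.54, which act in the making and activation of sialic acid. The increases were in SLC35A2 and SLC35A1, at 1.71 and 1.03, which carry UDP-galactose and CMP-sialic acid into the Golgi apparatus. Against KELLY, SKNAS gave 4 higher and 0 lower, or 3 and 2 after median-ratio scaling, and LAN-1 gave 5 higher and 0 lower, or 2 and 0. Before scaling, 49.5% of all genes were called higher and 16.1% lower for SKNAS, and 38.2% and 13.6% for LAN-1. In SKNAS Hmx1, 0 of 6 passed with limma, 0 at an unadjusted p under 0.05, against 8.76% and 18.6% of all genes. After median-ratio scaling 1 was higher, and after quantile normalization 1 as well. CMAS, the gene that overlaps ST8SIA1, had 78.8, 72.7 and 79.7 TPM in SKNAS Hmx1 and 68.2, 77.0 and 74.5 TPM in SKNAS control, with overlapping arms.

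Ganglioside breakdown in the lysosome gave 5 higher and 3 lower of 11 for SKNAS control against LAN-1 control, where 31.5% of all genes were called higher and 20.5% lower. GM2A, the activator protein for GM2 cleavage, had 22.1, 20.9 and 23.5 TPM in SKNAS control, against 7.66, 7.63 and 6.69 TPM in LAN-1 control. GALC, which cleaves galactosylceramide, had 24.3, 19.7 and 21.9 TPM in SKNAS control and 4.15, 8.51 and 5.44 TPM in KELLY control and was listed at 0 in all 6 LAN-1 libraries. Against KELLY, SKNAS gave 6 higher and 1 lower, or 5 and 3 after median-ratio scaling, and LAN-1 gave 5 higher and 3 lower, or 4 and 5. Before scaling, 49.5% of all genes were called higher and 16.1% lower for SKNAS, and 38.2% and 13.6% for LAN-1. The sialidase NEU4 was lower in SKNAS than in LAN-1 by -1.19 and than in KELLY by -2.76. It also fell in the mean Hmx1 effect of the lines, with a log2 difference of -0.62 by limma (SE 0.16, adjusted p = 0.0340). In SKNAS Hmx1, 0 of 11 passed with limma, 2 at an unadjusted p under 0.05, against 8.76% and 18.6% of all genes. After median-ratio scaling 1 was lower, and after quantile normalization 1 as well.

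Relatives of CD276 were sparse, and 3 of 8 other B7 genes were tested. CD80 and CD86 were listed at 0 in every library, and CD274, the ligand PD-L1, was at most 2.04 TPM. NCR3LG1, a ligand of the natural killer cell receptor NKp30, had 2.54, 1.29 and 2.60 TPM in SKNAS control, 10.2, 9.52 and 10.1 TPM in LAN-1 control and 0.579, 1.71 and 1.18 TPM in KELLY control. LAN-1 lay above both other lines without overlap. NCR3LG1 and VTCN1 (-0.62) were the 2 lower in SKNAS than in LAN-1, where 20.5% of all genes were called lower. NCR3LG1 and ICOSLG (1.12) were the 2 higher in LAN-1 than in KELLY, where 38.2% of all genes were called higher. Between SKNAS and KELLY, ICOSLG was higher (0.81) and VTCN1 lower (-0.78), where 49.5% of all genes were called higher and 16.1% lower. In SKNAS Hmx1, 0 of 3 passed with limma, 0 at an unadjusted p under 0.05, against 8.76% and 18.6% of all genes.

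Some glypicans other than GPC2 rose with Hmx1 in SKNAS. GPC4 had 6.005, 4.72 and 6.80 TPM in Hmx1, against 2.17, 2.61 and 2.53 TPM in control, a log2 difference of 0.98 by limma (SE 0.21, adjusted p = 0.00447). GPC6 had 16.7, 21.0 and 21.4 TPM in Hmx1, against 10.6, 8.86 and 11.7 TPM in control, a difference of 0.86 (SE 0.21, adjusted p = 0.0135). They were 2 of 4 tested, where 8.76% of all genes were called, without overlap between the arms, and the list median was 0.54, against 0 for all genes. The GPC4 effect was larger in SKNAS than in KELLY by 1.11 (SE 0.29, adjusted p = 0.0355). GPC3, itself an antibody target in other tumours, had 39.9, 38.3 and 36.8 TPM in SKNAS Hmx1 and 48.3, 46.6 and 52.5 TPM in SKNAS control, a difference of -0.35 (SE 0.32, adjusted p = 0.679) that did not pass. In LAN-1 control GPC3 had 5.11, 4.36 and 4.43 TPM. Control SKNAS exceeded LAN-1 in 2 of 4, where 31.5% of all genes were called higher. It exceeded KELLY in 4 of 4, where 49.5% of all genes were called higher, or in 2 of 4 after median-ratio scaling. LAN-1 against KELLY gave 2 higher and 2 lower, where 38.2% of all genes were called higher and 13.6% lower.

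The partners of NCAM1 and L1CAM differed between the lines. ST8SIA2, the polysialyltransferase that modifies NCAM1 in embryonic neural tissue, was listed at 0 in all 6 SKNAS libraries. It had 38.8, 23.8 and 29.7 TPM in LAN-1 Hmx1 and 29.4, 30.2 and 23.6 TPM in LAN-1 control, and 8.90, 8.69 and 5.98 TPM in KELLY Hmx1 and 5.52, 15.2 and 7.08 TPM in KELLY control. ST8SIA4, the other polysialyltransferase, was at 1.81 to 2.31 TPM in SKNAS Hmx1 and 1.29 to 2.18 TPM in SKNAS control, and at most 0.173 TPM in KELLY. ST8SIA4 was higher still in LAN-1 control, as 1 of the 5 genes of the list called lower in SKNAS control. NCAM1 RNA was thus accompanied by RNA of both polysialyltransferases in LAN-1, chiefly ST8SIA2 in KELLY, and ST8SIA4 in SKNAS. NCAM2 had 16.4, 14.6 and 17.0 TPM in SKNAS control, 1.55, 1.64 and 1.28 TPM in LAN-1 control and 0.296, 0.629 and 0.353 TPM in KELLY control, without overlap. Of the 6 genes in the list, SKNAS control against LAN-1 control gave 1 higher and 5 lower, where 52% of all genes were called. Against KELLY, SKNAS gave 3 higher and 2 lower, or 2 and 2 after median-ratio scaling, and LAN-1 gave 5 higher and 0 lower. Before scaling, 49.5% of all genes were called higher and 16.1% lower for SKNAS, and 38.2% and 13.6% for LAN-1. In SKNAS Hmx1, NRCAM, an L1 family adhesion molecule, fell, with 3.08, 3.25 and 3.86 TPM in Hmx1, against 7.91, 7.06 and 7.19 TPM in control. Its log2 difference was -0.93 by limma (SE 0.21, adjusted p = 0.00649), the 1 call of 6, where 8.76% of all genes were called. The NRCAM effect was below that in KELLY by -1.35 with limma (SE 0.29, adjusted p = 0.00960).

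Around CD47, 0 of 5 tested genes passed in SKNAS Hmx1 with limma, where 8.76% of all genes were called. At an unadjusted p under 0.05 there were 0 as well, against 18.6% of all genes. QPCTL, which forms the pyroglutamate that the receptor SIRPA binds on CD47, had 12.4, 10.6 and 13.3 TPM in SKNAS control, against 6.14, 6.79 and 4.93 TPM in LAN-1 control. Control SKNAS exceeded LAN-1 in QPCTL, SIRPA, CALR and THBS1, 4 of 5, where 31.5% of all genes were called higher. CALR, the prophagocytic signal calreticulin, was 1.07 higher by limma (SE 0.25, adjusted p = 0.00147). Against KELLY, SKNAS was higher in CALR alone, by 1.08, where 49.5% of all genes were called higher. LAN-1 was lower than KELLY in QPCTL alone, by -0.57, where 13.6% of all genes were called lower. After median-ratio scaling 3 were lower in LAN-1. CD24, another signal against phagocytosis, was listed at 0 in every library. The annotation used is not given, so absent RNA cannot be told apart from a gene that was not counted.

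Among other surface targets of neuroblastoma, 5 of 15 passed in SKNAS Hmx1, 1 higher and 4 lower, where 4.96% of all genes were called higher and 3.8% lower, with a list median of -0.37, against 0 for all genes. PROM1 (CD133), a progenitor marker, fell, with 4.49, 5.24 and 3.80 TPM in Hmx1, against 17.0, 13.1 and 16.9 TPM in control, a log2 difference of -1.59 by limma (SE 0.20, adjusted p = 2.97e-05). DLK1, a Notch-like surface protein, fell, with 227, 195 and 199.9 TPM in Hmx1, against 362, 325 and 420.2 TPM in control, a difference of -0.82 (SE 0.14, adjusted p = 0.000904). SSTR2, the somatostatin receptor used for radioligand therapy, fell with a difference of -0.95 (SE 0.25, adjusted p = 0.0188), and GFRA2, a GDNF family receptor, with -0.93 (SE 0.22, adjusted p = 0.0107). ALK, the receptor kinase mutated in neuroblastoma, was called higher by limma (adjusted p = 0.0129), with 1.16, 1.07 and 1.32 TPM in Hmx1, and listed at 0 in all SKNAS control libraries. The PROM1 and DLK1 effects in SKNAS were below those in LAN-1, by -1.44 (SE 0.29, adjusted p = 0.00454) and -0.82 (SE 0.20, adjusted p = 0.0235). They were below those in KELLY too, by -1.34 and -1.10. In LAN-1, 0 of the 65 tested genes of the 9 lists passed with limma, where 0.45% of all genes were called. After median-ratio scaling, 1 ganglioside branch gene and 1 breakdown gene were lower in LAN-1 Hmx1, and 1 sialic acid supply gene was higher. After quantile normalization, 1 branch gene and 1 breakdown gene were lower. Of the 65, 7 had an unadjusted p under 0.05 in LAN-1, against 7.19% of all genes. In KELLY, 0 of the 65 passed, where 0.0912% of all genes were called, and 9 had an unadjusted p under 0.05, against 6.85%.

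Between control arms, SKNAS against LAN-1 gave 9 higher and 4 lower of these 15, where 52% of all genes were called. The noradrenaline transporter SLC6A2, through which the radiopharmaceutical MIBG enters the cell, had 0.875, 1.48 and 1.19 TPM in SKNAS control, 21.1, 29.6 and 16.0 TPM in LAN-1 control and 22.1, 39.7 and 26.5 TPM in KELLY control. DLK1 had 2086, 2309.6 and 2244 TPM in LAN-1 control and 1367, 1793 and 1463 TPM in KELLY control, so both genes were lowest in SKNAS. PROM1 and the death receptor gene TNFRSF10B were higher in SKNAS than in LAN-1, by 3.89 and 3.71. Against KELLY, SKNAS gave 9 higher and 4 lower, or 8 and 4 after median-ratio scaling, and LAN-1 gave 6 higher and 6 lower, or 4 and 8. Before scaling, 49.5% of all genes were called higher and 16.1% lower for SKNAS, and 38.2% and 13.6% for LAN-1.

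**Figure D5:**
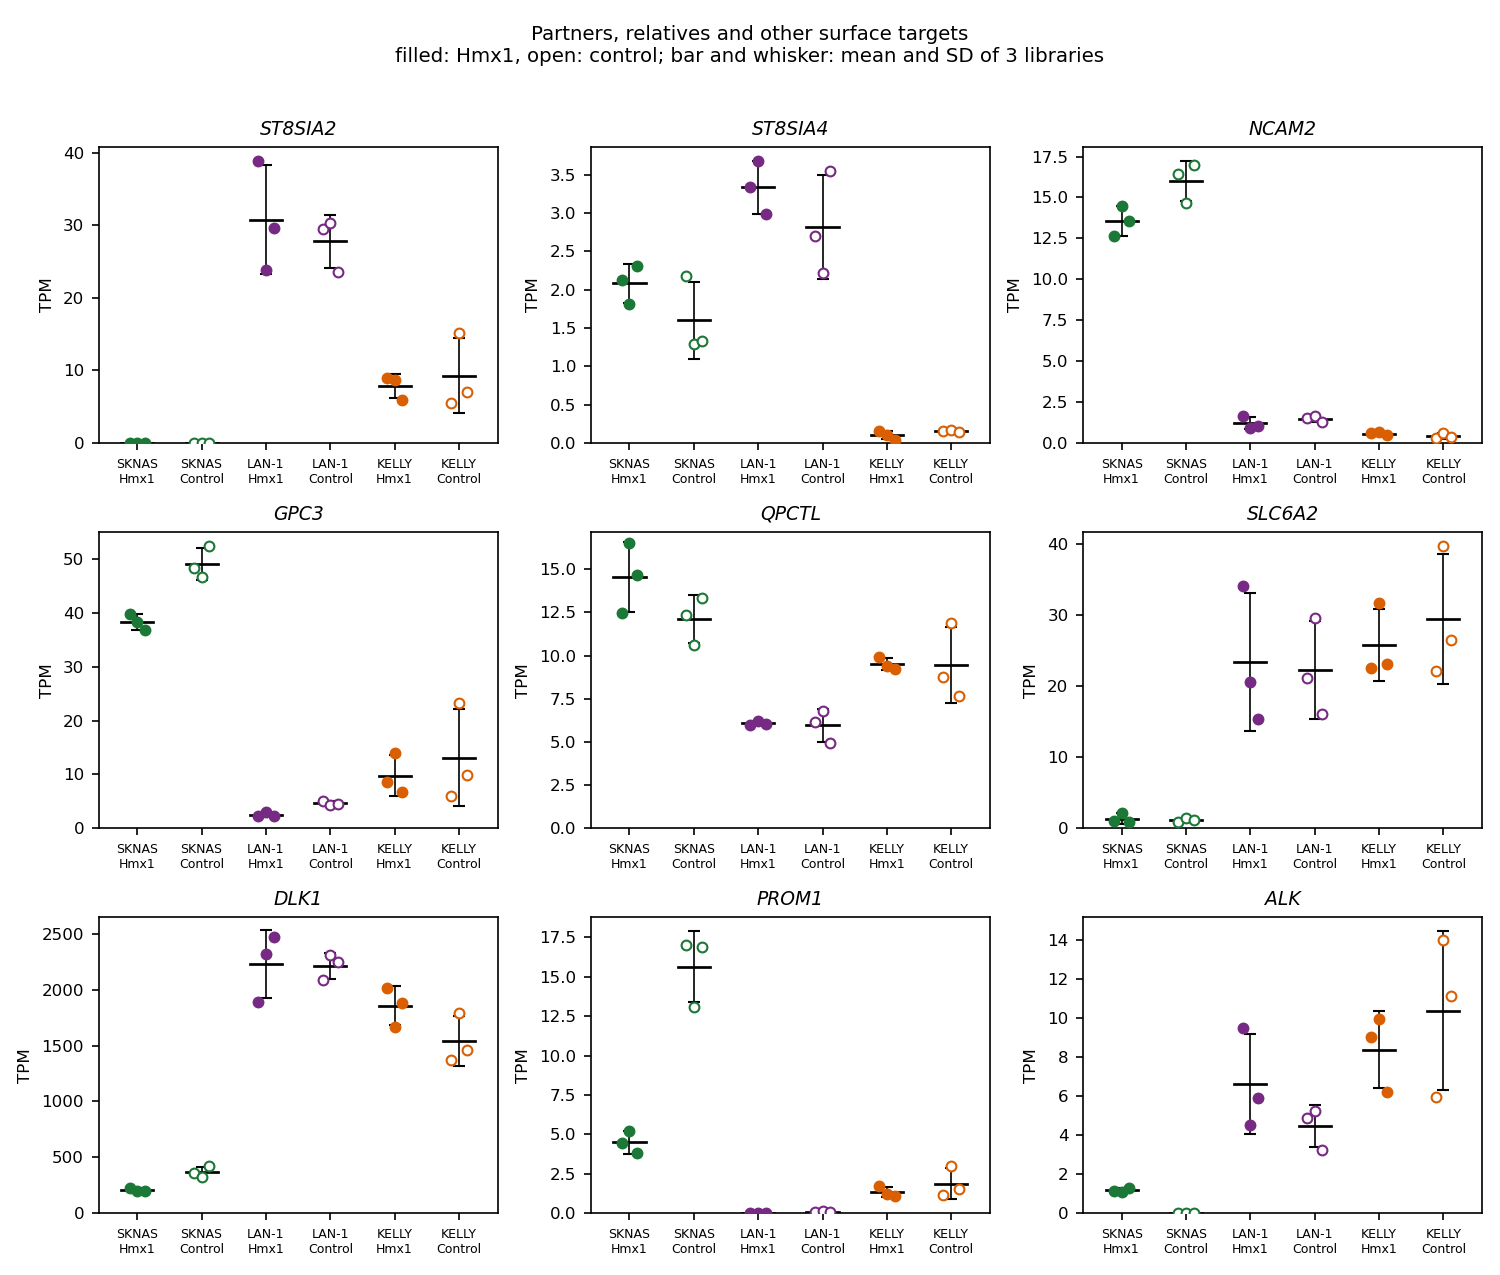
TPM per library of partner enzymes, relatives and other surface targets, by line and arm, with the mean and SD of 3 libraries. ST8SIA2 and ALK were listed at 0 in SKNAS control, GPC3 and NCAM2 were highest in SKNAS, and PROM1 and DLK1 were lower in SKNAS Hmx1 than in SKNAS control.

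The genes whose mean-centred profile over the 18 libraries lay nearest to each of the set were found by root mean square difference in log2(TPM + 1), as a description. For ST8SIA1 these were B4GAT1 (0.18), NEGR1 (0.21) and EFNA2 (0.24), and for ST3GAL5 GALNT13 (0.17) and DAPK1 (0.20). B4GAT1 and GALNT13 encode glycosyltransferases. For B4GALNT1 they were SEPTIN3 (0.27), NUP210 (0.28) and TMEM121B (0.28). GPC2 lay nearest to ASXL1 (0.12), L1CAM to VGLL4 (0.19), CD276 to SLC29A2 (0.28) and CD47 to NECAP1 (0.12). All profiles share the 6 groups of the study.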

How the data were processed

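The labels' protocols give stranded poly(A) libraries read as pairs of 125 bp. The submitters' processing notes list STAR, bcl2fastq and FastQC, and both GRCh37 and GRCh38.p12 as builds, with no role for either. Quantifier, annotation, strand setting and removal of mouse reads: not given in the sources used here. Per the file headers, the authors deposited TPM, FPKM and mean coverage for each gene. FPKM served as an alternative, and coverage only as a check of the files. TPM keeps no depth, so read numbers are unknown and no counting interval is given. Coordinates were read as GRCh37, since the last gene of chromosome 1 ends at 249231242, beyond 248937099 in RefSeq GRCh38.

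Symbols were matched by identifier (52181 of 63677). Genes that reached 1 TPM in 3 or more libraries entered limma 3.58.1 (R 4.3.3) on log2(TPM + 1), with 6 group means over 18 libraries, a mean-variance trend and Benjamini-Hochberg adjustment over 18650 genes in each of 10 comparisons, called at an adjusted p under 0.05. Of the 9 genes of the set, 8 passed this filter and B3GALT4 did not. The fit has 12 residual and 4.95 prior degrees of freedom, and was tested on simulated data. Replicate numbers follow accession order and pair nothing. Libraries of a group correlated across genes at r of 0.981 to 0.994. Alternatives were FPKM, a pseudocount of 0.1, no filter, 6 or more libraries at 1 TPM, quantile normalization, median-ratio scaling, TPM without mitochondrial genes, no trend, only the lines compared, and each library left out. The 9 gene lists cover lactosylceramide synthesis, ganglioside branches, sialic acid supply, breakdown, the B7 family, glypicans, the L1 family with NCAM2 and polysialic acid, the CD47 axis and other surface targets. Named genes are the set, genes overlapping it, up to 4 called genes with the largest change per list and comparison, partner or substrate genes, and the nearest profiles, and some genes this rule names are not reported here. CD274, CD80, CD86, CD24 and the GPC3 values in the Hmx1 arm fall outside this rule and were chosen after their values were seen. The set and the lists were chosen with earlier results of these data known. An exact 0 is given as listed at 0. For a gene at 0 in all 18 libraries, whether its reads could be counted was not tested.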

Additional observations from a re-analysis of the deposited data

Results flagged for a closer look

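The Hmx1 effect on ST8SIA1, the GD3 synthase, differed between SKNAS and KELLY, and the test of that difference is what brought it here. The effect in SKNAS minus the effect in KELLY was -0.97 on the log2(TPM + 1) scale (SE 0.25, adjusted p = 0.0304 with limma). ST8SIA1 was lower in all 3 SKNAS Hmx1 libraries than in all 3 SKNAS control libraries, while the KELLY arms overlapped, at 2.15 to 2.95 TPM in Hmx1 and 1.08 to 2.20 TPM in control. The call was lost in 7 of 28 alternatives, with adjusted p up to 0.0932. Among these were the compared lines alone and the removal of any SKNAS Hmx1 library. Without KELLY control replicate 1, the library with the highest mitochondrial share (33.8%), the difference was -0.81 (adjusted p = 0.0384). The part of that share in the difference was not tested.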

How the results depend on the processing

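Each of 28 alternatives was run for the 8 tested members. Between control arms, every call of ST8SIA1, ST3GAL5, B4GALNT1 and L1CAM kept its direction and passed in 28 of 28, and GPC2 for SKNAS against KELLY in 26 of 28. The SKNAS Hmx1 call of ST8SIA1 made the count 1, and it was 0 with a pseudocount of 0.1, with at least 6 libraries at 1 TPM, and with SKNAS alone, and 0 to 1 with single libraries left out. The count for the effect in SKNAS minus LAN-1 was 0, and 1 after quantile normalization. For SKNAS minus KELLY it was 1, and 2 after quantile normalization, median-ratio scaling and the joint removal of LAN-1 Hmx1 replicate 1 and KELLY control replicate 1 (chosen after seeing the data), 0 with the compared lines alone, and 0 to 1 with single libraries left out. Control SKNAS against KELLY had 2 calls, and 4 with FPKM or median-ratio scaling. No share of all genes is set beside the counts from the alternatives. LAN-1 against KELLY had 3, and 3 to 6 with single libraries left out, 5 without LAN-1 Hmx1 replicate 1 and 6 without KELLY control replicate 2. CD47 for control SKNAS against KELLY reversed to -0.37 after median-ratio scaling. The cause of these shifts was not tested. No paired analysis was possible because the labels give no replicate numbers that link libraries across arms. Summing over identifiers was not run, since each member has 1 identifier. TPM keeps no depth, so the precision of low genes such as B3GALT4 is unknown.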
